A study of Homo sapiens with 12 samples.

Results

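The 10 mRNAs described here code for proteins that serve the ribosome without being core ribosomal proteins: the elongation factors EEF1A1, EEF1B2, EEF1D, EEF1G and EEF2, the cytoplasmic poly(A)-binding proteins PABPC1 and PABPC4, the translationally controlled tumour protein TPT1, nucleophosmin (NPM1) and the ribosomal scaffold RACK1. They were taken by name as mRNAs known or likely to begin with a terminal oligopyrimidine (TOP) motif, and all 10 were found among the 16172 genes of the deposited table. The libraries come from NCI-H1299, an established human line of non-small cell lung cancer. Its cells received 2 EIF3G siRNAs in equal amounts (siEIF3G) or a control siRNA (siCtrl) and were lysed after 72 hours. RNA was sequenced from the polysomes of a 10% to 50% sucrose gradient and from input, a 10% portion of the lysate. This gave 4 groups of 3 libraries each: siEIF3G polysomal, siCtrl polysomal, siEIF3G input and siCtrl input. Beyond the siRNA all groups share the same line and transfection. No second line and no rescue of EIF3G was analysed here.

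A TOP mRNA starts with a C at its cap, followed by an unbroken run of C and T (U in the RNA). When the kinase mTOR is active such mRNAs are heavily translated; when mTOR is inhibited, LARP1 binds the cap and the run, and the mRNAs leave the polysomes. The class holds nearly all ribosomal protein mRNAs together with elongation factors and a few others, so that the parts of the translation machinery can be made together. EIF3G is a subunit of eIF3, the initiation factor that helps to bring mRNA to the small ribosomal subunit.

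The TOP motif was looked for at the annotated starts of 7 members. Each line gives 10 bases before the RefSeq start and 20 bases from it (GRCh38.p14), with capitals marking the longest run of C and T that begins within the first 5 bases from the start.
EEF1A1, chr6:73521013-73521042, minus strand: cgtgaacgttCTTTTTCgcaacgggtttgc
EEF1B2, chr2:206159885-206159914, plus strand: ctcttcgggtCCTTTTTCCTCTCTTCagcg
EEF2, chr19:3985444-3985473, minus strand: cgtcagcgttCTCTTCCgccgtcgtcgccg
TPT1, chr13:45341164-45341193, minus strand: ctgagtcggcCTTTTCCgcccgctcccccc
NPM1, chr5:171387839-171387868, plus strand: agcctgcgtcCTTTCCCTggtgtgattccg
RACK1, chr5:181243887-181243916, minus strand: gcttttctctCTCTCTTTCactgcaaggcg
EEF1G, chr11:62573872-62573901, minus strand: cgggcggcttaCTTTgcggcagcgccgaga

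The first 6 lines begin with C at the start and continue with at least 4 further pyrimidines, with runs of 7 bases in EEF1A1, EEF2 and TPT1, 8 in NPM1, 9 in RACK1 and 16 in EEF1B2. The EEF1G entry starts with A, 1 base before a run of 4. Such a start (C, then at least 4 of C or T, on the transcribed strand) was found in 6 of the 7 genes shown and in 4.07% of the 35116 promoters in the table, or 5.14% of 27305 genes. Cytosolic ribosomal protein genes held it in 47 of the 63 with an entry (74.6%), and the other non-ribosomal mRNAs described as TOP in 9 of 11 (81.8%). EEF1B2 and NPM1 have another annotated start each, without the motif. These are matches in the annotation, and which starts H1299 cells used was not measured. EEF1D, PABPC1 and PABPC4 are shown without sequence.

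Values are the authors' TPM (transcripts per 1000000 transcripts of a library). They correct for transcript length, so that levels can be compared between genes. Read depth is unknown, since TPM keep no counts. The labels do not say whether the 3 libraries of a group are separate cultures, and p-values therefore measure the spread between libraries, which may be technical. Being shares, TPM do not show a gain or loss of all mRNAs together, and in bulk RNA fewer cells and less RNA per cell cannot be told apart. EIF3G itself stood at 115 ± 39.9 TPM in siEIF3G polysomal and 1800 ± 118 TPM in siCtrl polysomal libraries, and at 64.3 ± 19.0 TPM in siEIF3G input and 1043 ± 147 TPM in siCtrl input (SD, n = 3 libraries each). Of 6 markers chosen for the line, VIM was at 265 to 3105 TPM, KRT18 at 435 to 1934 TPM and KRT8 at 108 to 429 TPM. AXL was at 40.4 to 142 TPM and CD44 at 16.6 to 104 TPM, but EGFR was low, at 0.44 to 9.42 TPM. Of the 9 measured markers of other cell types 6 stayed at or below 0.24 TPM. The rest were CD68 at 59.0 to 132, ACTA2 at 2.69 to 9.23 and MBP at 0.61 to 5.42 TPM. By their correlation over all tested genes, 3 libraries resembled their siRNA's other fraction more than their own group: siEIF3G polysomal 3, siEIF3G input 2 and siCtrl input 1. For siEIF3G polysomal 3 the mean correlations were close, at 0.953 and 0.949. The gene MTRNR2L2 was at 1258 to 2735 TPM in input libraries and 5.41 to 13.1 TPM in polysomal ones. It was at 9.10, 1581 and 1258 TPM in those 3 libraries. Why they lay nearer to the other fraction was not tested.

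Together the 10 mRNAs took between 0.982% and 2.82% of a library. RACK1, EEF2 and EEF1G were abundant everywhere, at ranks 27 to 86, 28 to 99 and 39 to 84 among all genes by TPM. EEF1A1 ranged between rank 14 and rank 313, NPM1 between 41 and 352 and EEF1B2 between 122 and 459. PABPC4 was the scarcest, at 10.2 to 157 TPM. The highest library exceeded the lowest by 29.8 times for PABPC1, 15.5 times for PABPC4, 15.2 times for EEF1A1 and 10.4 times for TPT1, but by only 1.87 times for EEF1G and 2.02 times for EEF1D.

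**Figure D1:**
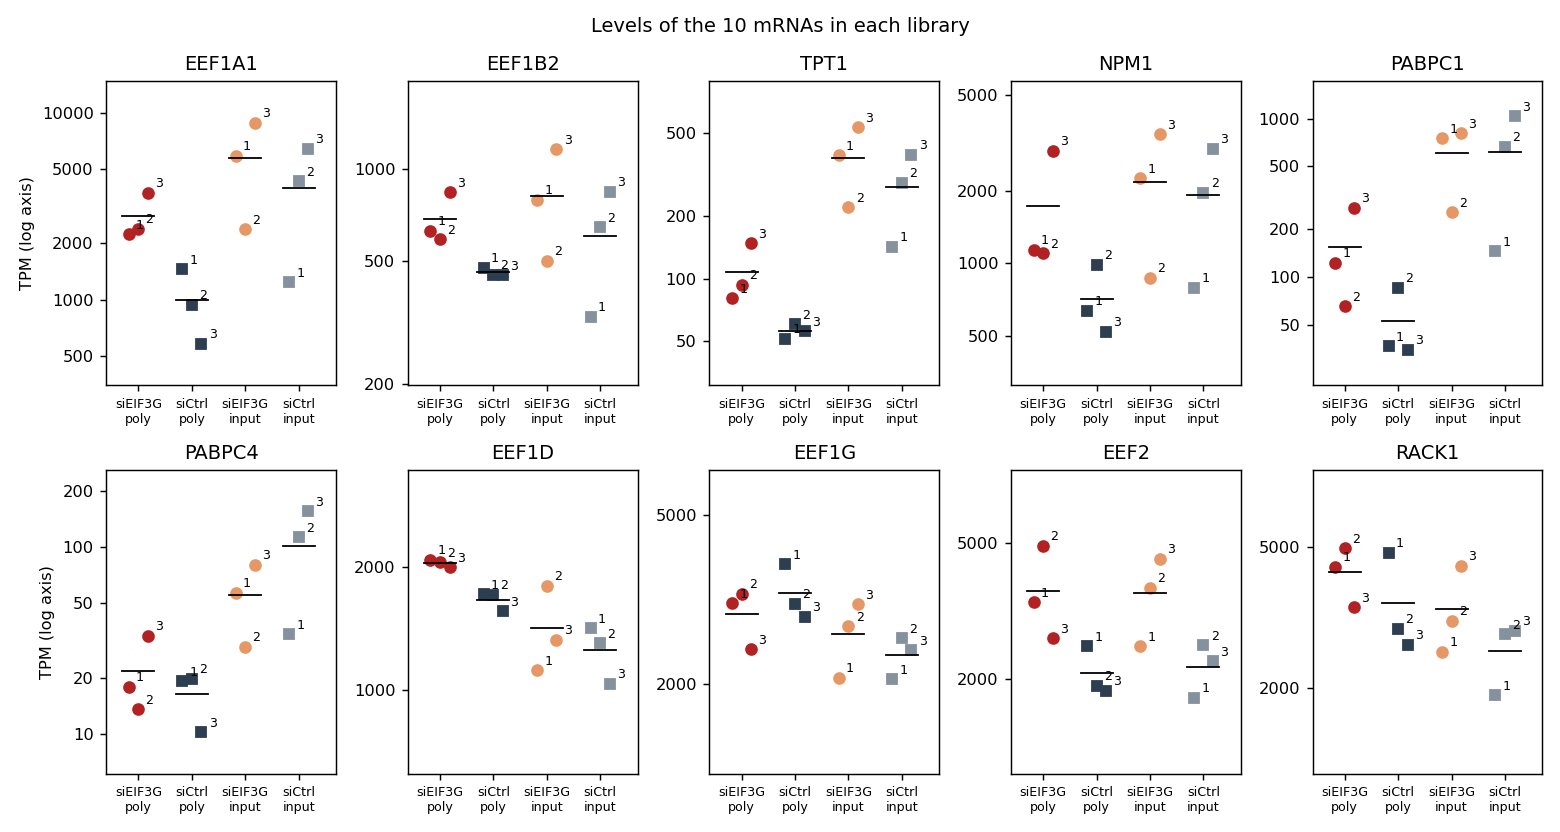
Level of each of the 10 mRNAs in every library, in TPM on a log axis, with libraries grouped from left to right as siEIF3G polysomal, siCtrl polysomal, siEIF3G input and siCtrl input points numbered by replicate and lines at the group means. EEF1A1, TPT1 and PABPC1 spread widely within and between groups, while EEF1G stays between 2049 and 3833 TPM.

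The comparison of siEIF3G with siCtrl in polysomal RNA asks which mRNAs took another share of the polysome-bound pool after the loss of EIF3G. In these libraries 9 of the 10 mRNAs had a higher mean with siEIF3G, and for 6 of them (EEF1A1, EEF1B2, EEF1D, EEF2, TPT1 and NPM1) all siEIF3G libraries lay above all siCtrl libraries. None passed the test. Among all genes 72.7% had a positive log2 difference, 21.6% lay wholly above in this way and 7.61% wholly below. The polysomal siEIF3G libraries also lay wholly above the siCtrl ones along the main axis of variation between libraries, described further on, so the siRNA and that variation cannot be told apart here.

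EEF1A1 delivers aminoacyl-tRNA to the ribosome and is among the most abundant proteins of the cell. It was at 2247, 2394 and 3737 TPM in siEIF3G polysomal libraries 1 to 3, against 1458, 939 and 583 TPM in the siCtrl ones. The lowest siEIF3G library was thus well above the highest siCtrl one, and the means stood at 281% of siCtrl. On the log2(TPM + 1) scale the difference was 1.55 (SE 0.58), with an adjusted p of 0.650 by limma over the 10605 genes tested. EEF1A1 has many processed pseudogenes, and how the authors' counting shared reads with them is not given in the sources used here.

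EEF2 moves the ribosome along the mRNA after each peptide bond. It was at 3349, 4899 and 2627 TPM in siEIF3G polysomal libraries and at 2491, 1910 and 1847 TPM in siCtrl polysomal libraries. The groups did not overlap, although siEIF3G library 3 and siCtrl library 1 were close. The log2 difference was 0.76 (SE 0.28, adjusted p = 0.650 by limma).

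The 3 subunits of eEF1B, the exchange factor that reloads eEF1A with GTP, did not share a pattern. EEF1B2, the alpha subunit with exchange activity, was at 629, 590 and 837 TPM with siEIF3G and at 477, 453 and 451 TPM with siCtrl, a log2 difference of 0.56 (SE 0.35). EEF1D, the second exchange subunit, was at 2088, 2060 and 2006 TPM with siEIF3G and at 1720, 1712 and 1559 TPM with siCtrl, a difference of 0.30 (SE 0.21). In both, every siEIF3G library lay above every siCtrl library, by small distances beside those of EEF1A1. EEF1G, the structural subunit, overlapped between the groups, at 3101, 3264 and 2413 TPM with siEIF3G and 3833, 3093 and 2877 TPM with siCtrl (log2 difference -0.16, SE 0.21). It was the 1 member with a negative value.

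The poly(A)-binding proteins coat the tail of the mRNA and bind eIF4G at the other end. PABPC1 was at 123, 65.4 and 275 TPM in siEIF3G polysomal libraries and at 36.8, 86.1 and 34.8 TPM in siCtrl ones. The groups overlapped through siEIF3G library 2 and siCtrl library 2, and the log2 difference of 1.42 had an SE of 0.71 (adjusted p = 0.650 by limma). PABPC4, its less abundant relative, was at 17.9, 13.5 and 33.6 TPM with siEIF3G and 19.1, 19.7 and 10.2 TPM with siCtrl. Its difference of 0.34 (SE 0.55) rested on siEIF3G library 3, without which it was -0.01.

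TPT1, a small abundant protein that takes its name from the translational control of its mRNA, was at 80.9, 93.5 and 149 TPM in siEIF3G polysomal libraries and at 51.4, 60.4 and 56.1 TPM in siCtrl ones. The siCtrl libraries lay close together and all below, with a log2 difference of 0.88 (SE 0.39, adjusted p = 0.650 by limma). NPM1, a nucleolar chaperone of ribosome assembly, was at 1139, 1103 and 2934 TPM with siEIF3G and at 635, 987 and 521 TPM with siCtrl, a difference of 1.16 (SE 0.56). Its groups did not overlap, but siEIF3G library 3 was far above libraries 1 and 2. RACK1, which sits on the small subunit near the mRNA exit, overlapped at 4389, 4942 and 3375 TPM with siEIF3G and 4799, 2934 and 2643 TPM with siCtrl, a difference of 0.33 (SE 0.29).

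Without siEIF3G polysomal 3 the differences were 1.32 for EEF1A1, 0.89 for PABPC1, 0.70 for NPM1, 0.63 for TPT1, 0.40 for EEF1B2 and 0.97 for EEF2. RACK1 ran from 0.16 without siCtrl polysomal 3 to 0.59 without siCtrl polysomal 1.

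The median of the 10 log2 differences in polysomal RNA was 0.66, against 0.33 for all genes tested. Unadjusted p-values lay under 0.05 for 3 members (EEF2, EEF1A1 and TPT1) and for 709 genes of 10605, and limma called 0 members and 2 genes in all (0.0189%), both lower and one of them EIF3G. With median-of-ratios size factors the median of all genes moved to -0.03 and that of the members to 0.12. EEF1D, PABPC4 and RACK1 then turned negative, while EEF1A1, EEF1B2, EEF2, TPT1, PABPC1 and NPM1 kept their positive sign under every alternative tried.

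**Figure D2:**
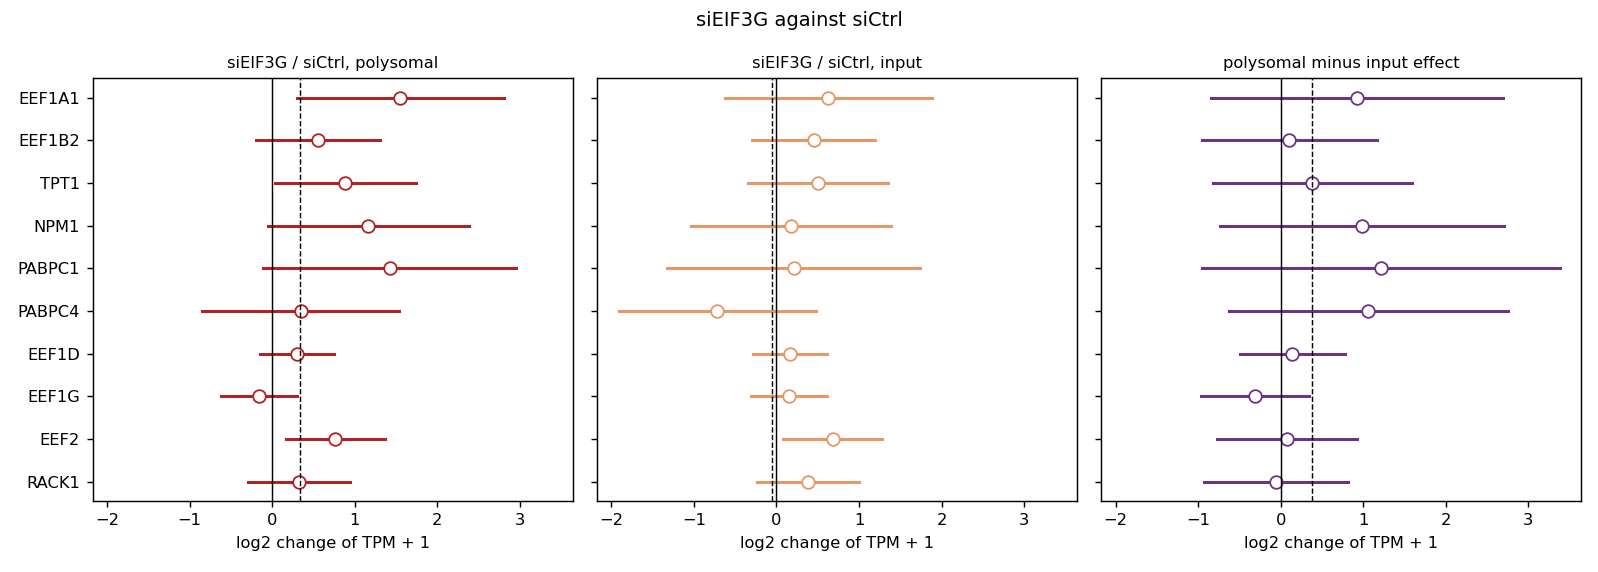
Log2 difference of siEIF3G and siCtrl for each mRNA, by comparison, with lines for 95% confidence intervals, filled points for an adjusted p under 0.05 and a dashed line at the median of all genes. No point is filled, and the polysomal values run between -0.16 for EEF1G and 1.55 for EEF1A1.

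In input RNA, which shows the mRNA content of the whole lysate, the siEIF3G and siCtrl libraries overlapped for all 10 mRNAs. The means of 8 were higher with siEIF3G and those of PABPC1 and PABPC4 lower. On the log2 scale 9 differences were positive and 1, that of PABPC4, was negative, where 43.0% of all genes were positive. Wholly separate groups were rare among all genes too, at 1.88% above and 1.80% below. Limma called 0 members and again 2 genes (0.0189%), with 1 member and 144 genes at an unadjusted p under 0.05.

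EEF2 had the largest positive input difference, at 2491, 3689 and 4493 TPM in siEIF3G libraries and 1763, 2509 and 2251 TPM in siCtrl libraries. Overlap was narrow, between siEIF3G library 1 and siCtrl library 2. The log2 difference was 0.68 (SE 0.28, adjusted p = 1.00 by limma), close to its polysomal value.

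EEF1A1 was at 5893, 2389 and 8852 TPM in siEIF3G input and at 1237, 4288 and 6401 TPM in siCtrl input, so that each group had a low library and a high one (log2 difference 0.63, SE 0.58). NPM1 showed the same low libraries, at 2254, 870 and 3429 TPM with siEIF3G and 792, 1966 and 2989 TPM with siCtrl (0.18, SE 0.56). These were siEIF3G input 2 and siCtrl input 1, which resembled the polysomal fraction. Without siCtrl input 1 the EEF1A1 difference was -0.07 and that of NPM1 -0.36. Without siEIF3G input 2 they were 1.16 and 0.74.

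PABPC1 was at 754, 256 and 810 TPM in siEIF3G input and 146, 664 and 1036 TPM in siCtrl input (log2 difference 0.21, SE 0.71). It followed the same 2 low libraries, and its sign turned without siEIF3G input 1, siEIF3G input 3 or siCtrl input 1, with values between -0.62 and 0.79 over the libraries left out. PABPC4 was at 57.1, 29.2 and 80.8 TPM with siEIF3G and at 34.2, 114 and 157 TPM with siCtrl. Its mean was 54.9% of siCtrl, with a log2 difference of -0.72 (SE 0.55), and it stayed negative in all 25 alternatives. Its size was not stable, at -1.36 without siCtrl input 1 and -0.28 without siCtrl input 3.

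TPT1 was at 392, 221 and 536 TPM in siEIF3G input and 143, 289 and 395 TPM in siCtrl input (log2 difference 0.50, SE 0.39). The low libraries were again siEIF3G input 2 and siCtrl input 1, and without them in turn the difference was 0.85 and 0.088. RACK1 was at 2524, 3090 and 4413 TPM with siEIF3G and 1906, 2829 and 2893 TPM with siCtrl (0.38, SE 0.29), with siCtrl input 1 lowest. Its value ran from 0.16 without siEIF3G input 3 to 0.56 without siEIF3G input 1.

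For the eEF1B subunits the input differences were 0.45 (SE 0.35) for EEF1B2, 0.16 (SE 0.21) for EEF1D and 0.16 (SE 0.21) for EEF1G. EEF1B2 followed the low libraries, at 792, 502 and 1154 TPM with siEIF3G and 331, 646 and 841 TPM with siCtrl, and its difference was 0.066 without siCtrl input 1. EEF1D ran the other way and was highest in exactly those libraries, at 1119, 1804 and 1328 TPM with siEIF3G and 1417, 1301 and 1036 TPM with siCtrl. EEF1G followed neither pattern, at 2068, 2733 and 3082 TPM with siEIF3G and 2049, 2562 and 2403 TPM with siCtrl. The members' median was 0.30 and that of all genes -0.05. It was 0.06 without siCtrl input 1 and 0.69 without siEIF3G input 2.

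Polysome loading was taken as the knockdown difference in polysomal RNA minus that in input RNA. It was positive for 8 of the 10 mRNAs and for 73.9% of all genes tested, and negative for EEF1G (-0.32, SE 0.30) and RACK1 (-0.06, SE 0.41). The largest values were 1.21 (SE 1.00) for PABPC1, 1.06 (SE 0.78) for PABPC4, 0.99 (SE 0.79) for NPM1 and 0.93 (SE 0.82) for EEF1A1. All 4 were highest without siCtrl input 1, at 2.05, 1.70, 1.53 and 1.62 in that order. The lowest values were 0.64 for PABPC1 and 0.62 for PABPC4 without siCtrl input 3, and 0.43 for NPM1 and 0.39 for EEF1A1 without siEIF3G input 2. EEF1B2, EEF1D, EEF2 and TPT1 were between 0.08 and 0.38. Limma called 0 of the 10605 genes (0%), the smallest adjusted p of a member was 0.908, and 0 members and 19 genes had an unadjusted p under 0.05. The members' median was 0.26 and that of all genes 0.38. With size factors the members were at -0.31 and all genes at -0.05, and EEF1B2, EEF1D, EEF2 and TPT1 turned negative. Relative to all genes the members thus stood at -0.12 as deposited and -0.25 with size factors, but at 0.23 with quantile normalization. The 95% intervals were wide, for EEF1A1 -0.85 to 2.70 and for TPT1 -0.82 to 1.59.

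Polysomal RNA was then compared with input RNA within each siRNA, which asks which of the mRNAs were rich or poor on polysomes. In siCtrl cells 7 of the 10 had a negative log2 difference, where 28.8% of all genes were positive. The 4 called lower were PABPC1, PABPC4, TPT1 and EEF1A1. Limma called 36.9% of all genes there, 3066 of the 3912 lower, and the median was -0.78 for the members and -0.96 for all genes. Relative to all genes the members stood at 0.18 as deposited and 0.43 with size factors, but at -0.93 after quantile normalization. The libraries were wholly apart for 3 members below (PABPC1, PABPC4 and TPT1) and 2 above (EEF1D and EEF1G), where 28.9% of all genes lay wholly below and 16.9% wholly above.

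PABPC1 averaged 52.6 ± 29.0 TPM in siCtrl polysomal and 615 ± 447 TPM in siCtrl input libraries (SD, n = 3 each), or 8.54% of input (log2 difference -3.25, SE 0.71, adjusted p = 0.0177 by limma). PABPC4 averaged 16.3 ± 5.34 TPM in siCtrl polysomal and 102 ± 62.2 TPM in siCtrl input libraries, or 16.1% (-2.37, SE 0.55, adjusted p = 0.0210 by limma). Against the median gene the 2 values were -2.28 and -1.40 on the log2 scale. Both mRNAs also followed the main axis of variation between libraries, described further on. On it siCtrl polysomal libraries scored -95.9 to -48.7 and siCtrl input libraries -49.3 to 113, with siCtrl input 1 lowest of the input ones. How much of the difference between the fractions belongs to that axis was not tested, here or for the other members.

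TPT1 averaged 56.0 ± 4.47 TPM in siCtrl polysomal and 276 ± 127 TPM in siCtrl input libraries, or 20.3% (-2.16, SE 0.39, adjusted p = 0.00874 by limma). EEF1A1 averaged 993 ± 440 TPM in siCtrl polysomal and 3975 ± 2597 TPM in siCtrl input libraries, or 25.0% (-1.80, SE 0.58, adjusted p = 0.0411 by limma). Its groups overlapped, since siCtrl input 1 had less EEF1A1 than siCtrl polysomal 1. NPM1 was at -1.28 (SE 0.56, adjusted p = 0.0718 by limma).

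The other 5 members lay closer to their input level in siCtrl polysomes. EEF1G was at 0.48 (SE 0.21), EEF1D at 0.42 (SE 0.21), RACK1 at 0.42 (SE 0.29), EEF2 at -0.06 (SE 0.28) and EEF1B2 at -0.29 (SE 0.35), none past the threshold. With size factors the median of all genes moved by almost the whole of its size, to -0.04, and EEF1D, EEF1G and RACK1 were then called higher, at 1.60, 1.65 and 1.59. Limma called 43.0% of all genes with that scaling, in either direction. EEF2 and EEF1B2 turned positive, at 1.12 and 0.88. Relative to all genes those 5 stood between 0.67 and 1.44 with the deposited scaling, but after quantile normalization EEF1B2 stood at -0.43 and EEF2 at -0.15.

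The TPT1 call in siCtrl cells held with each library left out and under the 13 other settings, with adjusted p between 8.30e-07 and 0.0498. The PABPC1 call ended without siCtrl polysomal 1 or 3 or siCtrl input 2 or 3 (adjusted p between 6.20e-07 and 0.0768 over its 25 alternatives). That of PABPC4 ended without any one of those libraries or siCtrl polysomal 2, and with only the siCtrl groups in the fit (6.45e-07 to 0.0949). That of EEF1A1 ended without any of those 5 or siEIF3G polysomal 1 or 2, and also with a pseudocount of 5, no filter, size factors (-0.63), only the siCtrl groups or the replicate block (6.31e-06 to 0.252). Leaving out 1 library also moved the number of calls among all genes, between 130 without siCtrl polysomal 2 and 7239 without siCtrl input 1.

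In siEIF3G cells 1 of the 10 passed. TPT1 fell to 108 ± 36.0 TPM in siEIF3G polysomal libraries, against 383 ± 158 TPM in siEIF3G input (SD, n = 3 each), or 28.1% of input, with a log2 difference of -1.78 (SE 0.39, adjusted p = 0.0302 by limma). Limma called 3.14% of all genes. TPT1 was wholly below and EEF1D wholly above, where 12.7% and 9.40% of all genes were. The call for TPT1 ended with size factors (-1.18), without a filter, without the trend, and without siEIF3G polysomal 1 or 2, siCtrl polysomal 2, siEIF3G input 1 or 3, or siCtrl input 2, at values of -2.13 to -1.49 over the libraries left out (adjusted p between 4.99e-05 and 0.167 over the 25 alternatives).

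PABPC1 was at -2.04 (SE 0.71, adjusted p = 0.139), PABPC4 at -1.31 (SE 0.55, adjusted p = 0.210) and EEF1A1 at -0.88 (SE 0.58, adjusted p = 0.362 by limma) in siEIF3G cells. NPM1 was at -0.29 and EEF1B2 at -0.19, while EEF2 at 0.02, EEF1G at 0.16, RACK1 at 0.36 and EEF1D at 0.56 were positive. The loading values above are the test of the difference between siEIF3G and siCtrl cells, and none passed. The members' median was -0.24, against -0.49 for all genes, which is 0.26 relative to them as deposited and -0.37 with quantile normalization.

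**Figure D3:**
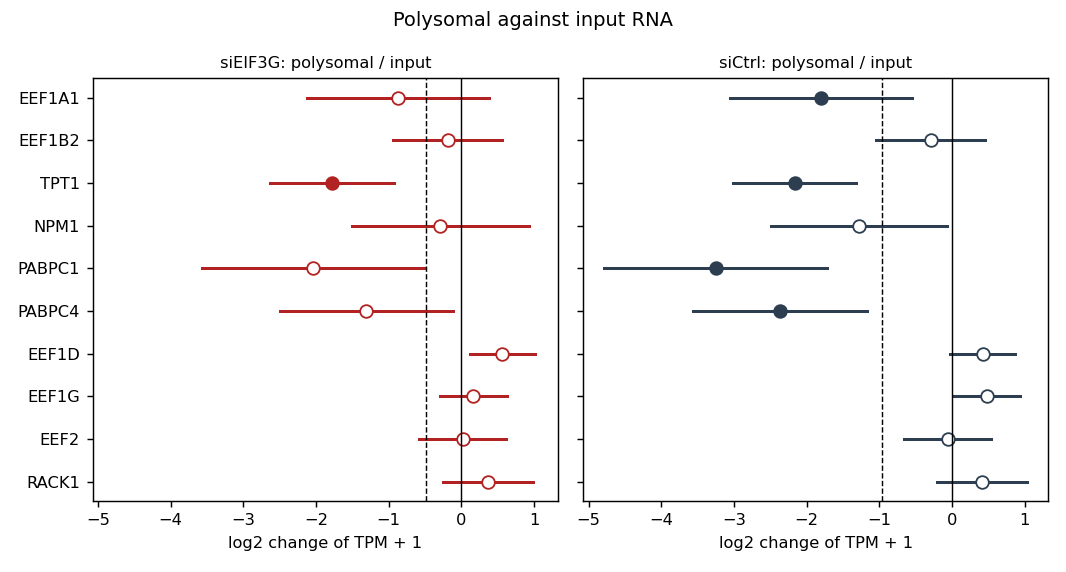
Log2 difference of polysomal and input RNA for each mRNA in siEIF3G cells and in siCtrl cells, with 95% confidence intervals, filled points for an adjusted p under 0.05 and a dashed line at the median of all genes. TPT1 is filled in both panels, and PABPC1, PABPC4 and EEF1A1 are filled for siCtrl, while EEF1D, EEF1G and RACK1 lie above 0 in both.

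Without the 3 libraries that lay nearer to the other fraction, which were picked for that likeness so that their removal widens the fractions by construction, 7 members were called in siEIF3G cells and 7 in siCtrl cells, beside 71.3% and 75.3% of all genes. The members' medians were then -0.98 and -1.25. No member was called in either knockdown comparison or in loading without them.

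The members split along the variation between libraries. The first axis of the deviations from group means, computed without the 10 mRNAs and without ribosomal protein genes, held 78.1% of the variance within groups. Deviations of EEF1A1, EEF1B2, TPT1, NPM1, PABPC1 and PABPC4 correlated with the libraries' position on it at Pearson's r of 0.942 to 0.970 over the 12 libraries, whose deviations share their group means. EEF1D was at -0.74, EEF1G at 0.05, EEF2 at 0.03 and RACK1 at 0.32. The groups of 6 and 4 mRNAs were drawn after these values were seen, and no test is given.

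Projected on that axis without centring, siEIF3G polysomal libraries scored -39.9 to 25.9 and siCtrl polysomal ones -95.9 to -48.7, so they did not overlap. Input libraries scored -30.1 to 78.2 with siEIF3G and -49.3 to 113 with siCtrl. The polysomal knockdown differences of EEF1A1, EEF1B2, TPT1, NPM1, PABPC1 and PABPC4 were 0.34 to 1.55, and that of EEF2, whose deviations did not follow the axis, was 0.76. The part of the axis in these differences, and in those between polysomal and input RNA, was not tested. With the axis as a covariate 6 members were called in polysomal RNA (EEF1A1, EEF1B2, EEF2, TPT1, PABPC1 and NPM1), beside 36.4% of all genes. That covariate is built from deviations from group means, so it has the same mean in every group. It narrows the errors, leaves the estimates as they are and cannot adjust for the difference in scores between siEIF3G and siCtrl polysomal libraries.

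**Figure D4:**
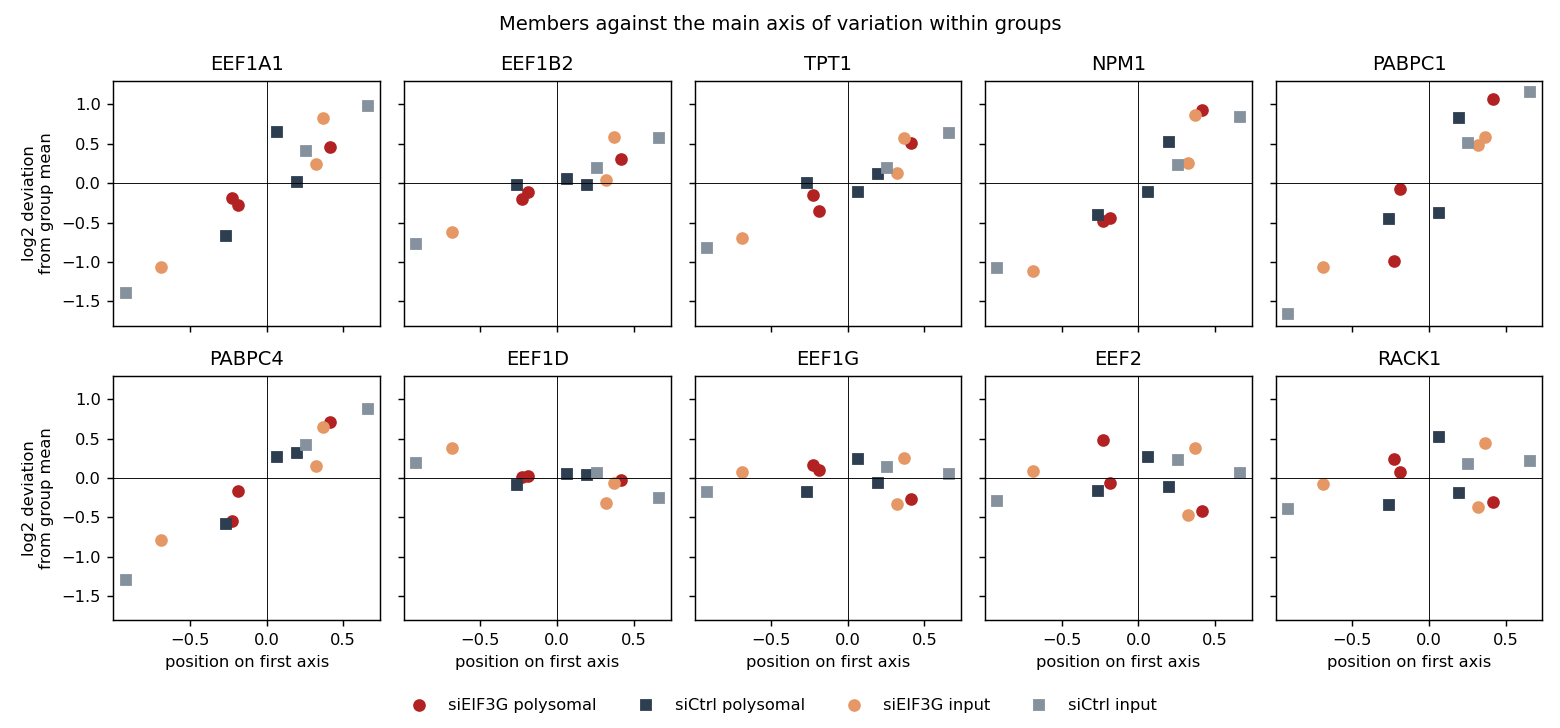
Deviation of each mRNA from its group mean on the log2 scale against the position of the library on the first axis of variation within groups, 1 point per library, with colours for the groups. EEF1A1, EEF1B2, TPT1, NPM1, PABPC1 and PABPC4 climb along the axis (r of 0.942 to 0.970), EEF1D descends, and EEF1G, EEF2 and RACK1 show no slope of that kind.

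Correlations of the levels themselves over the 12 libraries also hold the differences between fractions. Pearson's r between members was 0.59 to 0.96 among the 6 and 0.34 to 0.82 among the 4, and -0.78 to 0.51 between them. The ranges overlap through EEF2, which was nearer to EEF1B2 (0.51) than to EEF1D (0.34) or EEF1G (0.40). The closest pairs were TPT1 with PABPC1 (0.960), PABPC1 with PABPC4 (0.928) and EEF1A1 with NPM1 (0.914). EEF1G was closest to RACK1 (0.822) and EEF2 to RACK1 (0.746). Beyond the members, the genes most like the mean of the 10 were PITRM1, MTA3, SLC25A13, SUPV3L1 and CDCP1, at 0.990, 0.990, 0.989, 0.989 and 0.989.

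Ratios of mRNAs within a library do not depend on its scaling. The denominators EEF1G and PABPC4 were chosen after the values were seen, and the ratios are a description. EEF2 per EEF1G was 1.08, 1.50 and 1.09 in siEIF3G polysomal libraries, against 0.650, 0.618 and 0.642 in siCtrl polysomal ones. In input it was 1.20, 1.35 and 1.46 with siEIF3G, against 0.861, 0.979 and 0.937 with siCtrl. EEF2 thus exceeded EEF1G in all 6 siEIF3G libraries, and EEF1G exceeded EEF2 in all 6 siCtrl libraries. The siEIF3G libraries lay wholly above the siCtrl ones within each fraction, which EEF2 alone of 9 members and 0.839% of all genes showed relative to EEF1G.

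PABPC1 per PABPC4 was 6.91, 4.85 and 8.17 in siEIF3G polysomal libraries, against 1.93, 4.37 and 3.43 in siCtrl polysomal ones. In input it was 13.2, 8.76 and 10.0 with siEIF3G, against 4.27, 5.85 and 6.60 with siCtrl. Each siEIF3G library thus held more PABPC1 per PABPC4 than every siCtrl library of its fraction. Relative to PABPC4, 3 of 9 members (EEF1A1, PABPC1 and NPM1) and 11.7% of all genes did so. EEF1A1 per EEF1A2, its tissue-restricted paralogue, was 2.49 to 8.03 with siEIF3G and 1.40 to 1.75 with siCtrl on polysomes, but 4.58 to 16.9 and 3.60 to 17.6 in input.

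**Figure D5:**
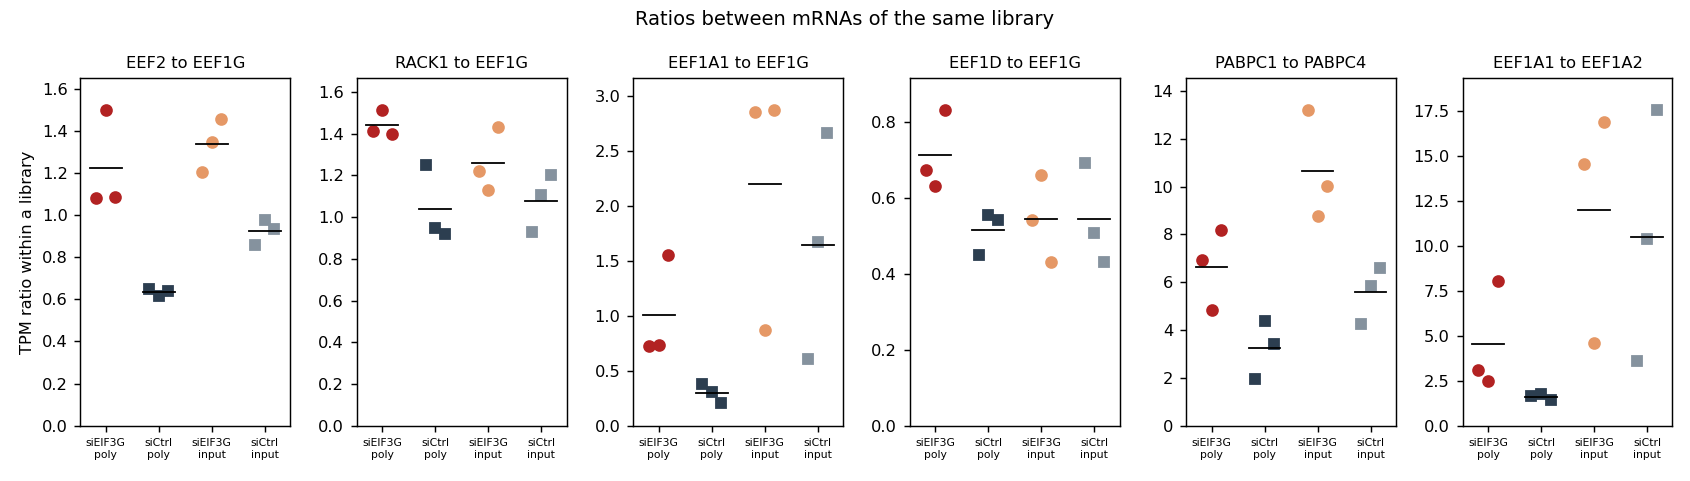
Ratios of TPM between pairs of mRNAs in every library, with the 4 groups in the order siEIF3G polysomal, siCtrl polysomal, siEIF3G input and siCtrl input, 1 point per library and lines at the group means. EEF2 per EEF1G is at 1.08 to 1.50 in siEIF3G and 0.618 to 0.979 in siCtrl libraries, and PABPC1 per PABPC4 is also apart in each fraction.

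Other genes of translation give the setting. Of the 79 cytosolic ribosomal protein mRNAs, the main TOP class, 72 were positive in input (median 0.29, members 0.30) and 46 in polysomal RNA (median 0.08, members 0.66), where they lay 0.25 below the median of all genes and the members 0.33 above it. With quantile normalization ribosomal protein mRNAs lay 0.11 above that median and the members 0.69 above it, and with size factors the ribosomal protein mRNAs turned negative (median -0.45, members 0.12). Their loading was negative in 62 of 79, with a median of -0.19, against 0.26 for the members. With size factors both medians were negative, at -0.76 and -0.31 for the members. With quantile normalization 47 of 79 were negative, with a median of -0.11, against 0.23 for the members. RPL5, which joins the 5S particle, stood out among the polysomal values at 1.18 (SE 0.47). In siCtrl cells 20 ribosomal protein mRNAs were called lower and 4 higher in polysomal than in input RNA, where 3066 and 846 of all 10605 genes were. In siEIF3G cells 12 were called lower and 0 higher, where 141 and 192 of all genes were. Size factors turned the siCtrl count round, with 0 lower and 17 higher beside 43.0% of all genes called. They left 0 ribosomal protein mRNAs called in siEIF3G cells, beside 0.443% of all genes.

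The 16 other non-ribosomal mRNAs described as TOP were positive in 15 of 16 cases in both fractions, with medians of 0.26 in input and 0.87 in polysomal RNA. With size factors 11 of 16 were positive in polysomal RNA, with a median of 0.34. The polysomal values were led by EIF4B, a helper of the helicase eIF4A (1.45, SE 0.65), the filament protein VIM (1.44, SE 0.46) and EIF4A2, an eIF4A paralogue (1.41, SE 0.59). In siCtrl cells 9 were called lower and 1 higher in polysomal RNA, beside 36.9% of all genes called. The 9 included EIF4B at -2.56 (SE 0.65, adjusted p = 0.0267 by limma). Size factors gave 1 lower and 4 higher, beside 43.0% of all genes. Limma called 0 genes of either list in any knockdown comparison or in loading.

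Other elongation factors, with partners and modifying enzymes, were mixed. Of the 16 tested, 11 were positive in polysomal RNA (median 0.24, and -0.16 with size factors). They were led by DPH5 of the diphthamide pathway, which modifies eEF2 (1.54, SE 0.52), and the valyl-tRNA synthetase VARS1, which binds the eEF1B complex (0.92, SE 0.28). In siCtrl cells 3 of the 16 were called higher on polysomes and 4 lower (7 and 3 with size factors). Of all genes 36.9% were called there (43.0% with size factors). DPH1 was at 1.13 (SE 0.31, adjusted p = 0.0304) and EEF1E1 at -1.39 (SE 0.46, adjusted p = 0.0420 by limma).

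Of 20 tested regulators of TOP mRNAs, 9 were positive in input and 15 in polysomal RNA, with a polysomal median of 0.79 (0.41 with size factors and 0.31 with quantile normalization). LARP1, the repressor of the class, was at 20.7 TPM in siEIF3G and 8.86 TPM in siCtrl polysomal libraries on average (1.04, SE 0.62), and at -2.36 (SE 0.62, adjusted p = 0.0284 by limma) between siCtrl polysomal and siCtrl input RNA. All 12 tested relatives and partners of the poly(A)-binding proteins had negative values between polysomal and input RNA. In siCtrl cells 5 of them passed the threshold, beside 36.9% of all genes. All 12 loading values were positive (median 0.80, all genes 0.38). With size factors 10 of the 12 were negative in siCtrl cells, 2 past the threshold (43.0% of all genes), and 10 loading values were positive. PAIP2, an inhibitor of PABP, was at -0.97 (SE 0.62) in input. The 9 tested nucleolar and TPT1 partners had a polysomal knockdown median of 1.18 (0.64 with size factors), with nucleolin (NCL) at 1.92 (SE 0.76) and DDX21, a nucleolar helicase, at 1.98 (SE 0.80). None of these genes was called between siEIF3G and siCtrl.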

How the data were processed

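RNA of 12 H1299 libraries was compared. The authors deposited TPM per gene and library; RSEM 1.3.1 and the build GRCh38.p13 are named in the submitters' processing notes, which give no aligner, annotation or strand setting. Libraries were grouped by the labels' treatment and fraction. TPM were used as deposited, as log2(TPM + 1), which understates changes of low genes. Genes averaging 1 TPM or more (10605 of 16172, with all 10 members) were fitted with limma 3.58.1 in R 4.3.3 (4 group means, mean-variance trend, 8 residual degrees of freedom), with Benjamini-Hochberg adjustment over all of them in each of 5 comparisons and a threshold of 0.05. The script was tested on simulated data. Members and gene lists were chosen with earlier results of these data known. Named are all members, up to 4 genes per list and comparison by size of change, EIF3G and the 5 genes most like the members' mean. EEF1A2, as a denominator, MTRNR2L2 and the markers MBP and EGFR are named outside this rule, after their values were seen. Same-numbered libraries of different groups, pairs across the siRNAs included, deviated together in 6 of 18 pairs (r above 0.1). The main fit did not take the numbers as pairs. Between polysomal and input libraries 1 to 3 of the same number, r was -0.45, 0.64 and 0.62 with siEIF3G and -0.13, 0.36 and -0.52 with siCtrl. Whether such a pair came from the same lysate was not tested, and these correlations cannot decide it. The replicate block ran across both siRNAs, and no fit paired polysomal with input libraries within a siRNA. Alternatives covered the pseudocount, the filter, the scaling, the model and the libraries left out. Promoter windows come from RefSeq, GRCh38.p14.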

Additional observations from a re-analysis of the deposited data

How the results depend on the processing

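Of 1240 single-gene values under the alternatives, 1133 kept their sign and side of the threshold, 44 changed sign, 31 lost a call and 32 gained one, and the cause was not tested. Of the sign changes, with those of the 2 medians between the fractions under size factors included, 26 came with 1 library left out. A further 17 came with another scaling and 3 with 3 libraries left out together. Outside this count the loading median changed sign with size factors (-0.31). So did the siEIF3G median between the fractions without siEIF3G input 3 (0.12). With median-of-ratios size factors the members' medians were 0.12 for the polysomal knockdown difference, -0.31 for loading, and 0.36 and 0.39 for polysomal against input RNA in siEIF3G and siCtrl cells, with 0 members called in siEIF3G cells and 6 in siCtrl cells (3 higher). Of all genes 0.443% were called in siEIF3G cells and 43.0% in siCtrl cells with that scaling. Signs turned for the polysomal knockdown difference of EEF1D (-0.24), PABPC4 (-0.17) and RACK1 (-0.21), for the loading of EEF1B2 (-0.47), EEF1D (-0.43), EEF2 (-0.49) and TPT1 (-0.18), for EEF1B2 (0.41) and NPM1 (0.31) between the fractions in siEIF3G cells, and for EEF1B2 (0.88) and EEF2 (1.12) in siCtrl cells. Quantile normalization turned the loading of RACK1 (0.12). A total without ribosomal protein genes and members turned the loading of EEF2 (-0.0130) and, between the fractions in siEIF3G cells, EEF1G (-0.056) and EEF2 (-0.20). In siEIF3G cells 0 members were called between the fractions without a filter (2.12% of all genes) or without the trend (1.4%). In siCtrl cells 2 were called with only the groups compared (5.75% of all genes), which leaves fewer samples.

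Without the 3 libraries nearer to the other fraction, PABPC1 was at -0.086 in input, PABPC4 at -0.011 in polysomal RNA and the loading of RACK1 at 0.26. The medians between the fractions were -0.98 in siEIF3G and -1.25 in siCtrl cells, with 7 members called in each. With the axis as a covariate, which leaves the estimates as they are and narrows their errors, 6 members were called for the polysomal knockdown difference, 3 for loading, 5 between the fractions in siEIF3G cells and 7 in siCtrl cells, where 36.4%, 18.1%, 61.3% and 74.3% of all genes were called. That axis was computed from the same libraries. With the replicate number as a block 0, 0, 0, 1 and 3 members were called in the order input, polysomal, loading, siEIF3G and siCtrl, and EEF1A1 in siCtrl cells had an adjusted p of 0.0516 (its range over all alternatives was 6.31e-06 to 0.252). The block called 2121 genes (20%) in siCtrl cells, against 3912 without it, and the numbers were not taken as pairs.

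Over the libraries left out in turn, where an arm of 2 libraries is assumed to vary like the other groups, the input knockdown median ran from 0.064 to 0.69, with EEF1A1 at -0.069 to 1.16, EEF1D at -0.025 to 0.32, PABPC1 at -0.62 to 0.79 and NPM1 at -0.36 to 0.74. In polysomal RNA PABPC4 ran from -0.011 to 0.62. The loading median ran from 0.17 to 0.64, EEF1B2 from -0.20 to 0.49, EEF1D from -0.016 to 0.33, EEF2 from -0.16 to 0.29 and RACK1 from -0.24 to 0.21. Between the fractions in siEIF3G cells the median ran from -0.67 to 0.12 and the members called from 0 to 2, with EEF1B2 at -0.50 to 0.10, EEF1G at -0.00047 to 0.30, EEF2 at -0.22 to 0.23 and NPM1 at -0.85 to 0.14. In siCtrl cells the median ran from -1.25 to -0.44, the members called from 1 to 5 and EEF2 from -0.20 to 0.051. Depth is unknown, so counting error could not be set beside any of these values, and 3 libraries a group leave wide intervals. The alternative of only the groups compared has no form for loading, which uses all 4.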
